A study of Ambystoma mexicanum with 5 samples.

Results

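*Lhx2* (AMEX60DD050555) and *Lhx9* (AMEX60DD018728) are the 2 LIM homeobox genes that could be named among the 99088 genes of the deposited count table. The table holds identifiers without symbols, and symbols were at hand for 283 identifiers, from the study's lists of genes that differed between these libraries, so that other LIM homeobox genes may stand in the table unnamed. They were chosen from the same libraries described here, as a pair of related genes with high anterior counts, of which *Lhx2* was still counted in every posterior library and *Lhx9* in none. The size and direction of their difference between anterior and posterior cells are therefore given as a description, without a test. Both genes were among the 20875 genes with enough counts to be tested. The table covers connective tissue cells from the skin of the uninjured axolotl lower arm, with 2 anterior and 3 posterior libraries. All 5 libraries came from axolotls of the same genotype (tgSceI, Etnka), in which the mouse *Prrx1* enhancer (Mmu.Prrx1) drives TFPnls together with the tamoxifen-dependent recombinase ERT2-Cre-ERT2, and all carried the reporter Caggs:loxP-GFP-loxP-mCherry. In all of them 4-OHT given at the embryo stage had switched the reporter to mCherry, and the label marks descendants of cells active for that enhancer in the embryo, whatever they express later. Each replicate pooled 8 axolotls of 12 cm, or 16 lower arms, and mCherry-positive cells were sorted by FACS from each part of the skin. A strip of skin between the anterior and posterior parts was left out.

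LIM homeodomain proteins carry a pair of zinc-binding LIM domains and a homeodomain that binds DNA. Their LIM domains bind the adaptor LDB1, which joins them into larger complexes, and LIM-only (LMO) proteins can take the place of the LIM homeodomain protein on that adaptor. *Lhx2* and *Lhx9* are close vertebrate relatives of *apterous*, which patterns the fly wing, and both are expressed in limb bud mesenchyme of mouse and chick. In the mouse limb bud they act together with *Lmx1b*, the dorsal LIM homeodomain factor, in the exchange of signals that maintains *Shh* and *Fgf* expression and outgrowth.

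Depth was lower for the anterior position (44317956 and 51408176 counts) than for the posterior one (53927341 to 59062548 counts). Yet more genes had at least 1 count in anterior replicates 1 and 2 (21628 and 22402). In posterior replicates 1, 2 and 3 there were 20468, 21104 and 20195 such genes. Of the genes tested, 1464 and 1079 were at 0 in anterior replicates 1 and 2. In posterior replicates 1, 2 and 3 this was 2029, 1607 and 2268. The part of this difference in the posterior zeros of single genes was not tested. QuantSeq reads come from the 3′ end of each transcript, so that a count does not grow with transcript length. On that basis the counts of different genes in one library are set side by side. How completely the 3′ end of each gene is annotated was not checked, so that such comparisons between genes are approximate. Levels are given in counts per 1000000 (CPM), scaled by edgeR's TMM factors of 0.9933 to 1.011. A count of 3 is taken as the limit that a count of 0 allows, equal to 0.0511 to 0.0669 CPM in these libraries. No molecular identifiers are described, so that limits and intervals cover counting error only. They make no allowance for the smaller number of genes detected in posterior libraries. The posterior factor *Hand2* had 600 and 708 counts in the anterior and 7701 to 8994 in the posterior libraries, which follows the position labels. The positions were compared over all genes by the quasi-likelihood test of edgeR, and a gene passed if its Benjamini-Hochberg adjusted p was below 0.01. Of the 20875 genes tested 53 passed, or 0.254%, with 28 higher in anterior and 25 higher in posterior cells. This number rests on the posterior replicates, since 5, 2 and 3 genes passed without posterior replicate 1, 2 and 3.

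*Lhx2* had 1228 and 1409 counts in anterior replicates 1 and 2, and 431, 348 and 264 counts in posterior replicates 1, 2 and 3. Scaled to library size this was 27.4 and 27.6 CPM against 7.35, 5.94 and 4.91 CPM. Both anterior libraries lay well above all posterior libraries, and the anterior libraries were almost equal whereas the posterior libraries spread over a 1.5-fold range. The anterior mean was 27.5 ± 0.141 CPM (SD, n = 2) and the posterior mean 6.07 ± 1.22 CPM (SD, n = 3), a 4.53-fold difference and a log2 fold change of -2.18 (standard error 0.26, posterior over anterior). Over the 6 pairings of an anterior with a posterior library the fold ran from 3.73 to 5.62. In a bulk library, fewer cells expressing a gene and less RNA per expressing cell cannot be told apart.

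*Lhx9* had 550 and 899 counts in anterior replicates 1 and 2 and 0 counts in each of the 3 posterior libraries. Its anterior levels were 12.3 and 17.6 CPM, with a mean of 14.9 ± 3.77 CPM (SD, n = 2). The posterior libraries together gave no count of *Lhx9*, against 1449 in the anterior libraries. Taking 3 counts in each posterior library as the limit, at a mean of 0.0527 CPM, the posterior level of *Lhx9* was at least 283-fold lower, or at most 0.353% of its anterior level. This is an upper limit, and the level may be anywhere below it. Both genes belong to the 13.6% of genes tested whose anterior libraries all lay above all posterior libraries, the order for which they were chosen.

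**Figure D1:**
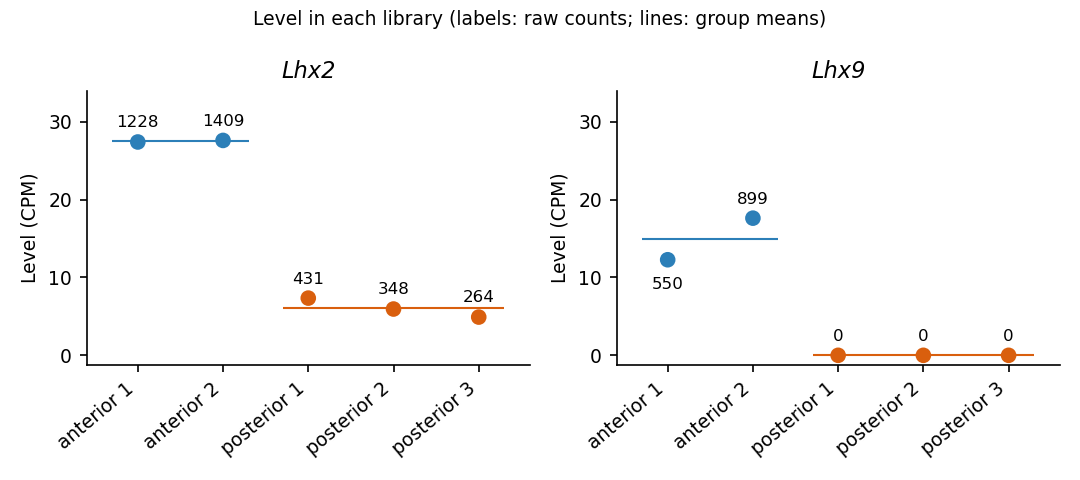
Level of *Lhx2* (left) and *Lhx9* (right) in each library, in CPM, with raw counts as labels and group means as lines (blue, 2 anterior libraries; orange, 3 posterior libraries). *Lhx2* falls from about 27.5 CPM in anterior to 4.91 to 7.35 CPM in posterior libraries, and *Lhx9* from 12.3 and 17.6 CPM to 0.

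The spread between replicates differed between the genes. The coefficient of variation (SD over mean) of *Lhx2* was 0.514% between the anterior libraries, where the median over the 4059 genes tested with an anterior mean within a factor of 2 of its own was 11.6%. Between the posterior libraries it was 20.2%, against a median of 29.6% over 5348 genes of like posterior level. *Lhx9* varied by 25.3% between the anterior libraries, against a median of 14.3% over 5145 genes of like level. The near equality of *Lhx2* between the 2 anterior libraries was thus closer than in most genes of its level, and 2.19% of them were closer still. The 1.43-fold difference of *Lhx9* between the same libraries was wider than in 75.2% of the genes of its level. With 2 libraries, either value rests on a single difference.

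By rank, *Lhx2* was among the more abundant transcripts of anterior cells. Its level exceeded that of 82.7% of the genes tested in both anterior libraries, and that of 52.0% to 59.4% in the posterior libraries. *Lhx9* exceeded 68.9% and 75.4% of the genes tested in the anterior libraries. A transcript of that abundance was rarely absent from the other position. Of the 6164 genes tested with at least 550 counts in each anterior library, the lower of the *Lhx9* counts, *Lhx9* was the 1 gene with 0 counts in every posterior library. Conversely, none of the 6368 genes with at least 550 counts in each posterior library was at 0 in both anterior libraries (0 genes). With a minimum of 100 counts, 2 of 12191 genes were counted in both anterior libraries and in no posterior library. Besides *Lhx9* this was AMEX60DD048418, which carries the provisional symbol LOC115076842 and had 129 and 631 anterior counts. None of the 11898 genes with at least 100 counts in each posterior library was at 0 in both anterior libraries. Among genes of fewer counts the pattern was less rare. Of the 17631 genes with at least 10 counts in each anterior library, 207 were at 0 in every posterior library. In the other direction, 43 of the 15928 genes with at least 10 counts in each posterior library were at 0 in both anterior libraries. The 2 directions cannot be set against each other. They ask for counts and zeros in unlike numbers of libraries, and each posterior library had more tested genes at 0. The minimum of 550 is that of *Lhx9* itself, and the gene was chosen for its posterior zeros, so that these numbers describe how uncommon the pattern was and carry no test.

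**Figure D2:**
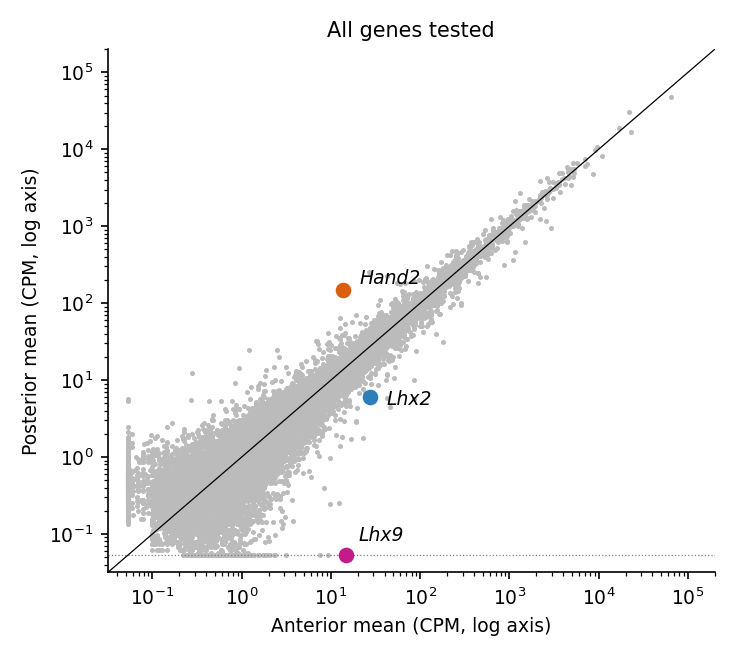
Mean posterior against mean anterior level of all 20875 genes tested, in CPM on log axes, with the line of equal level; means under 0.0527 CPM are drawn at that value (dotted on the posterior axis). *Lhx9* sits on the posterior limit at 14.9 CPM in anterior cells, *Lhx2* lies below the line with 6.07 CPM in posterior cells, and *Hand2* lies above it.

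A ratio of both genes within one library does not depend on how libraries are scaled to each other. *Lhx9* had 0.448 counts per *Lhx2* count in anterior replicate 1 and 0.638 in anterior replicate 2. As a share of the counts of both genes, *Lhx9* took 30.9% in anterior replicate 1 (95% Clopper-Pearson interval 28.8% to 33.1%). In anterior replicate 2 it took 39.0% (37.0% to 41.0%). The 2 intervals did not overlap. They take each read as a separate draw, which could not be checked without molecular identifiers. In the posterior libraries the share was 0, with upper bounds of 0.852%, 1.05% and 1.39%. The anterior and posterior shares were far apart in every library. At the ratios of the anterior libraries, the *Lhx2* counts of posterior replicate 1 would come with 193 to 275 *Lhx9* counts, those of replicate 2 with 155.9 to 222 and those of replicate 3 with 118.2 to 168.4. In total, the 1043 posterior *Lhx2* counts would come with 467 *Lhx9* counts at the lower ratio and none was counted. The pair was chosen because *Lhx2* was counted in every posterior library and *Lhx9* was not, so that these bounds and expected counts give the size of that difference and no test of it. Whether reads of one gene were counted for the other was not tested. How reads with several alignments were counted is not given in the sources used here.

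**Figure D3:**
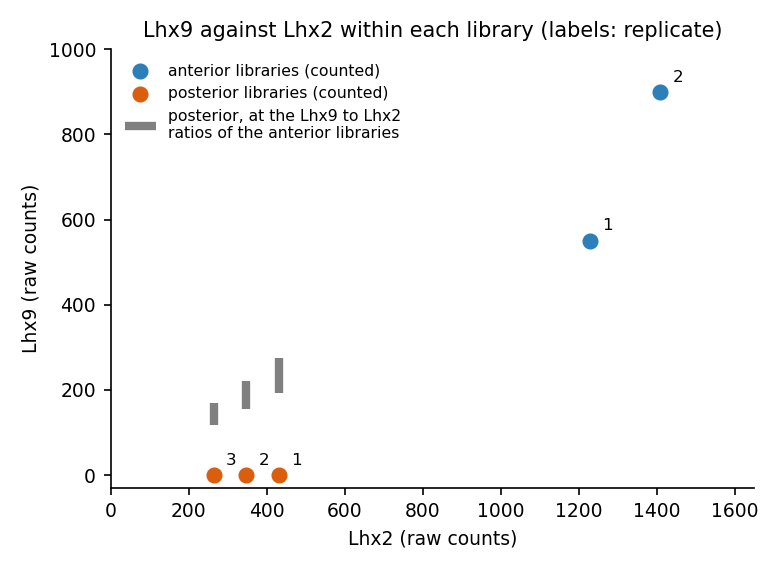
Raw counts of *Lhx9* against *Lhx2* in each library (blue, anterior; orange, posterior; labels, replicate numbers), with grey bars for the *Lhx9* counts that posterior *Lhx2* counts would bring at the anterior ratios of 0.448 and 0.638. The posterior libraries lie at 0 on the *Lhx9* axis, below bars that start at 118.2, 155.9 and 193 counts.

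Both genes belong to a list of spatial transcription factors drawn up by the study. Used here were the 24 factors of that list whose symbols also stand among the genes the study called on these libraries. Any factor of the list without such a symbol was not counted. Of these, 15 were higher in anterior and 9 higher in posterior cells. The members were left out of the edgeR count over all 5 libraries, since they were chosen by this difference. Of the 22 other factors 7 passed in edgeR. They were 3 of 13 anterior factors and 4 posterior factors. Of all genes tested, 0.134% passed as higher in anterior and 0.120% as higher in posterior cells. All 24 carry a symbol because the study called them on these libraries, so that neither the count nor its excess over the background is independent evidence. More of the 22 other factors passed with DESeq2, by which the study had called them, and where 1.40% of all genes passed. In edgeR 1, 1 and 2 of the 22 other factors passed without posterior replicate 1, 2 and 3. The median log2 fold change of the 24, with the members included, was -0.76, against -0.02 over all genes tested. Genes with 0 counts lay far below that median whether taken as fitted or at their bound.

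The 15 anterior factors differed in how much of their level was left in posterior cells. *Lhx9* stood at one end of the order, at no more than 0.353% of its anterior level. *Hoxc10*, a homeobox gene of the HoxC cluster, had 400 and 494 counts in anterior and 0, 1 and 0 in posterior libraries, a measured share of 0.0612%. At 3 counts in each posterior library, the limit used for genes at 0, its share would be 0.567%. *Foxd1*, a forkhead factor, had 223 and 68 counts in anterior and 0 in each posterior library, or at most 1.67%. These 3 limits differ through the anterior levels alone and set no order among the genes. *Alx1*, a paired-type homeobox gene, followed at 6.72% and *Hoxc6* at 11.3%. *Lhx2* kept 22.1% of its anterior mean, with 26.7%, 21.6% and 17.9% in the 3 posterior libraries. The other end was held by *Tcf4* (60.0%), a bHLH factor, *Snai2* (65.1%), a zinc-finger factor of mesenchymal cells, and *Zfhx4* (65.7%), a large zinc-finger homeobox gene.

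Among the 14 other anterior factors, the posterior libraries of 4 lay wholly below the range of *Lhx2* and those of 5 wholly above it. The ranges of the remaining 5 overlapped with it, namely *Hoxc6* (6.83% to 18.7%), *Tbx22* (22.2% to 28.7%), *Barx1* (22.4% to 33.9%), *Egr4* (22.3% to 30.8%) and *Dmrt2* (14.8% to 41.0%). The place of *Lhx2* relative to these 5 is not resolved by the replicates. In all, 12 of the 15 factors had counts in every posterior library, the lowest of which was 50 counts. Posterior replicate 3 was the lowest of the posterior libraries in 7 of these 12 factors, with *Lhx2* counted among the 7. Replicate 1 was the lowest in 4 and replicate 2 in 1.

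**Figure D4:**
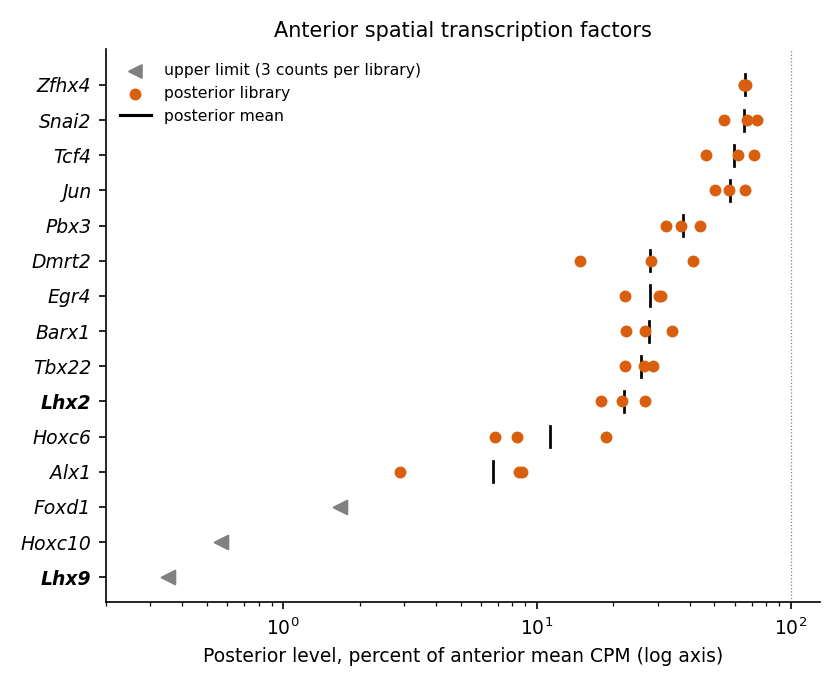
Posterior level of the 15 anterior spatial transcription factors as a percent of their anterior mean CPM, on a log axis (orange points, 3 posterior libraries; black bars, means; grey triangles, upper limits from 3 counts per library). *Lhx9*, *Hoxc10* and *Foxd1* appear as limits of 0.353% to 1.67%, although *Hoxc10* had 1 count in a posterior library. *Lhx2* lies at 22.1%, and its posterior libraries overlap in range with those of *Hoxc6*, *Tbx22*, *Barx1*, *Egr4* and *Dmrt2*.

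The genes most like each member were found by the root-mean-square difference of log2 CPM over the 5 libraries, after centring each gene on its own mean, among the 20874 other genes tested. The nearest to *Lhx2* was *Mn1* (AMEX60DD000888), which encodes a transcriptional co-regulator, with a difference of 0.153 log2 units, the smallest of all genes at a prior count of 2. *Mn1* had 24.6 and 28.9 CPM in anterior and 7.07, 6.37 and 6.04 CPM in posterior libraries, close to *Lhx2* in level as well. The next genes with a symbol were *Kansl2* (0.19), a subunit of a histone acetyltransferase complex, *Syt12* (0.204), a synaptotagmin, *Tbx22* (0.207), a T-box factor, and *Mdga1* (0.212), a membrane-anchored adhesion protein. They ranked between 2 and 6 among all genes, and their posterior means were 24.3% to 26.7% of the anterior means. The ranks depend on the prior count, and with a prior count of 5 *Mn1* ranked 3 and the other 4 genes ranked between 16 and 30. The nearest to *Lhx9* was *Hoxc10* (0.474 log2 units), followed by LOC115076842 (0.805), *Krt18* (1.3), a keratin of simple epithelia, *Lrrc71* (1.38) and *Foxd1* (1.44), which ranked 1 to 5 among all genes. *Krt18* had 96 and 129 counts and *Lrrc71* 95 and 106 counts in the anterior libraries, and both had 0 in every posterior library. The differences from *Lhx9* were larger than those from *Lhx2*. *Lhx2* itself was 3.16 log2 units from *Lhx9*, at rank 585 of 20874, and *Lhx9* was at rank 20753 from *Lhx2*. With *Lhx9* at 0 in posterior libraries, its distances depend on the prior count. From *Lhx2* the distance was 4.13 at a prior count of 0.5 and 2.52 at 5. At 0.5, *Hoxc10* (0.799) and LOC115076842 (0.809) were almost equally near to *Lhx9*. Symbols are known here only for genes the study called on these libraries, so that all named neighbours in pattern come from its calls.

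Of a list of 22 genes of the LIM network (the LIM homeodomain and LIM-only families, the LDB adaptors, SSBP proteins that stabilise LDB1, and the ubiquitin ligase gene *Rlim*), 3 could be matched by symbol, and the third is *Lmo4* (AMEX60DD051000), a LIM-only gene. *Lmo4* had 8247 and 7567 counts in the anterior and 5217, 4439 and 2923 in the posterior libraries, or 184 and 148 CPM against 88.9, 75.8 and 54.4 CPM. The groups did not overlap, and posterior replicate 3 was again the lowest. The anterior mean was 166 ± 25.3 CPM (SD, n = 2) and the posterior mean 73.0 ± 17.5 CPM (SD, n = 3). *Lmo4* missed the threshold in edgeR, at a log2 fold change of -1.19 (standard error 0.20) and an adjusted p of 0.0328. It did pass with DESeq2 (adjusted p = 2.1e-05), over a range of 5.77e-10 to 0.294 across the alternatives, and it carries a symbol because the study called it with DESeq2 on these libraries. There were 6.72 and 5.37 *Lmo4* counts per *Lhx2* count in the anterior and 12.1, 12.8 and 11.1 in the posterior libraries. *Lmo4* thus exceeded *Lhx2* in every library. The ratio, though not the excess in counts, was larger in posterior ones. The study took symbols from the direct human homologue or, where there was none, from the closest homologue found. Which of these holds for AMEX60DD051000 is not stated. The identifiers of *C8G* and *MMEL1* are numbered on either side of AMEX60DD051000. In the RefSeq annotation of another axolotl assembly, UKY_AmexF1_1, genes named *LMO4*, *C8G* and *MMEL1* were not all found on the same chromosome. That does not show which of them lies apart. There *LMO4* is on the chromosome of *LHX9*, with 106 protein-coding genes between, whereas AMEX60DD051000 is numbered nearer to *Lhx2*. The identity of AMEX60DD051000 was not settled and remains uncertain. The LDB and SSBP genes, *Lmx1b* and the other LIM homeodomain genes were not analysed here, since no identifier could be paired with their symbols.

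Of 8 signalling and patterning genes tied to LIM homeodomain factors in limb buds of mouse and chick, 2 could be matched by symbol, and the values of both were higher in posterior libraries. Both carry a symbol because the study called them on these libraries, so that a difference was given in advance. The others of the list were not analysed here, since no identifier could be paired with them. *Grem1*, which encodes a secreted BMP antagonist, had an anterior mean of 26.9 ± 0.228 CPM (SD, n = 2) and a posterior mean of 253 ± 38.4 CPM (SD, n = 3). *Grem1* passed in edgeR (adjusted p = 5.06e-05) and was 3.24 log2 units (standard error 0.18) higher in posterior cells, where 0.120% of all genes tested passed in that direction. *Msx2*, a homeobox gene that responds to BMP signals in vertebrate limb buds, was at 16.0 ± 3.97 CPM (SD, n = 2) against 35.3 ± 5.17 CPM (SD, n = 3), and did not pass (log2 fold change 1.14, standard error 0.24, adjusted p = 0.0826, edgeR). At the anterior mean, *Lhx2* and *Grem1* were at nearly the same level, 27.5 and 26.9 CPM, whereas at the posterior mean *Grem1* was at 253 and *Lhx2* at 6.07 CPM.

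In their surroundings, the genes are placed alike. In the RefSeq annotation of UKY_AmexF1_1 the protein-coding genes next to *LHX2* are *NEK6* and *DENND1A*, and those next to *LHX9* are *NEK7* and *DENND1B*. *NEK6* and *NEK7* encode closely related kinases of mitosis, and *DENND1A* and *DENND1B* encode related activators of Rab GTPases. The assembly differs from that of the counts, and it was used for the order of genes only. In the numbering of the count table, the 10 identifiers below and the 10 above each member gave 40 neighbours, and 21 of them were without a count in these libraries. Of these neighbours 14 were tested, 6 around *Lhx2* and 8 around *Lhx9*, and 0 passed in edgeR, DESeq2 or limma-voom, where 0.254% of all genes tested passed in edgeR and 1.40% in DESeq2. No neighbour (0 around *Lhx2* and 0 around *Lhx9*) had an unadjusted p under 0.05 in edgeR, as 1576 of all 20875 genes tested did. At these background shares few or no calls among 14 genes are usual, and the counts do not set the neighbours apart from other genes. Around *Lhx2* the log2 fold changes ran from -1.89 to 0.46 (smallest adjusted p = 0.809, edgeR), and around *Lhx9* from -1.02 to 1.89 (smallest adjusted p = 0.781, edgeR). The low end around *Lhx2* and the high end around *Lhx9* were genes of few counts, with 0 to 46 and 0 to 70 counts in a library. The low end around *Lhx9* was AMEX60DD018733, 5 numbers after it, with 218 and 136 counts in anterior and 113, 106 and 99 in posterior libraries. In CPM the anterior libraries lay above all posterior libraries for 2 of the 8 tested neighbours of *Lhx9*, this gene and AMEX60DD018738, and for 1 of the 6 of *Lhx2*, where 13.6% of all genes tested did so. The well-counted AMEX60DD050552, 3 numbers before *Lhx2*, had 3315 and 3525 counts in anterior and 3713 to 4720 in posterior libraries. Farther away, the anterior factor *Pbx3*, a partner of Hox proteins, is 42 identifiers from *Lhx2* and kept 37.8% of its anterior level in posterior cells. The pericyte gene *Rgs5* is 24 identifiers from *Lhx9*.

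**Figure D5:**
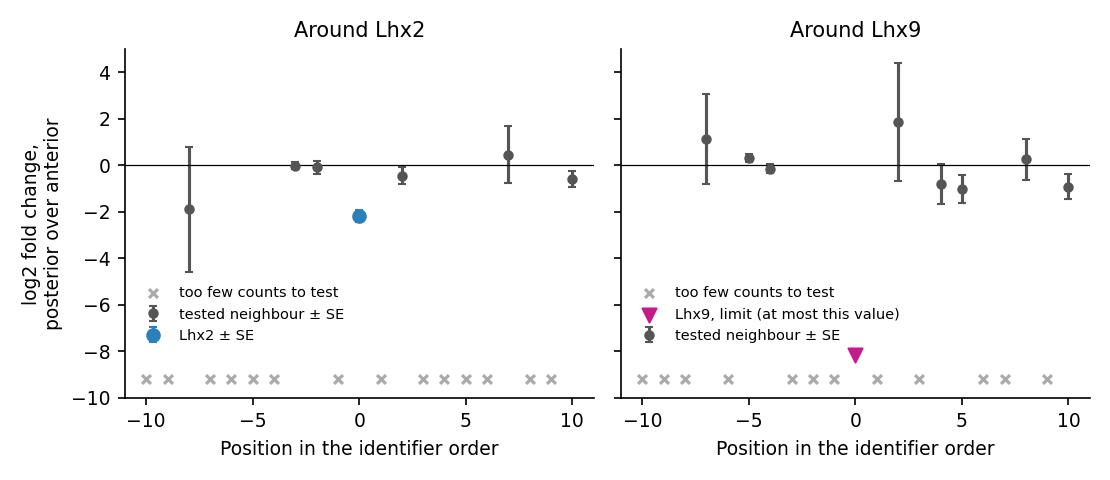
Log2 fold change (posterior over anterior, with standard errors) of the 10 identifiers on each side of *Lhx2* (left) and *Lhx9* (right) in the numbering of the count table; crosses mark identifiers with too few counts to test. *Lhx2* at -2.18 and the limit for *Lhx9* at 8.15 log2 units below anterior are drawn with 14 tested neighbours, of which 0 passed where 0.254% of all genes did.

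Markers of the sorted and of other cell types moved between the positions as well, and their part in the levels of *Lhx2* and *Lhx9* was not tested. Of the connective tissue list 6 of 14 genes could be matched by symbol, and their summed level (most of it *Postn*) was 11900 to 13300 CPM in anterior and 7620 to 8450 CPM in posterior libraries. Of these, 4 had higher means in anterior and 2 in posterior libraries. In edgeR *Postn* (adjusted p = 0.00222) and *Col12a1* (adjusted p = 0.00768) passed as higher in anterior cells, where 0.134% of all genes tested did so. *Fn1*, which encodes fibronectin, passed as higher in posterior cells, where 0.120% did so. It was at 1312 CPM against 786.5 CPM in anterior cells (adjusted p = 0.00768, edgeR). *Prrx1* and *Pdgfra* of that list were not analysed here, since no identifier could be paired with them. Epidermal markers (7 of 10 genes) summed to 412 to 416 CPM in anterior and 675 to 910 CPM in posterior libraries, with *Krt17* at 0 in both anterior libraries and *Krt18* at 0 in all posterior libraries. In edgeR *Krt19* (AMEX60DD038184, adjusted p = 0.00169), *Col17a1* (adjusted p = 0.0047) and *Krt5* (adjusted p = 0.00759) passed, each higher in posterior cells. *Ocln*, a tight junction gene of the same list, went the other way and did not pass. Its means were 106.6 CPM in anterior and 42.4 CPM in posterior libraries (adjusted p = 0.0259, edgeR). Markers of Schwann and pigment cells (2 of 7, *Ngfr* and *Ednrb*) summed to 54.9 to 58.6 CPM in anterior and 17.5 to 24.3 CPM in posterior libraries. The pericyte marker *Rgs5* (1 of 5) was at 26.9 to 36.2 CPM against 9.80 to 14.6 CPM. Macrophage markers (2 of 6, *Ctss* and *Timd4*) summed to 23.9 to 43.1 CPM against 69.0 to 101 CPM, and the endothelial marker *Cd34* (1 of 6) was at 17.5 to 19.6 CPM against 31.8 to 42.1 CPM. The muscle marker *Cav3* (1 of 5) had 0 and 1 counts in anterior and 69 to 106 counts in posterior libraries. Each of these genes has a symbol because the study called it on these libraries, so that the sums cannot describe the lists as a whole.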

How the data were processed

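The authors prepared QuantSeq 3′ libraries from 20.25 ng of RNA, trimmed reads with Trimmomatic 0.39, mapped them to AmexG_v6.0-DD with HISAT2 and counted them with featureCounts. The authors deposited raw counts per gene and library, without normalization. Versions of HISAT2 and featureCounts are not given in the sources used here. Columns were assigned to samples by the column number in each sample's description. Symbols come from the study's tables of differentially expressed genes, which pair 283 of 306 identifiers with a symbol, and values in those tables were not used. Of the 99088 genes listed, 71378 had no count.

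Counts were filtered by filterByExpr, scaled by TMM and fitted with the position as term in edgeR 4.0.16 (glmQLFit, glmQLFTest; R 4.3.3), adjusted by Benjamini-Hochberg over all genes tested, at a false-discovery rate of 0.01. Standard errors are the absolute log2 fold change over the square root of F. Binomial intervals are Clopper-Pearson at 95%. Pattern likeness used a prior count of 2. DESeq2 1.42.0, limma-voom (limma 3.58.1), other scalings and filters, a replicate block and leaving out each library were alternatives. P-values measure the spread between pools of 8 animals. The edgeR procedure was also run on simulated counts, in which sampled genes were raised or lowered by a fixed fold. That run does not bear on genes absent from every library of a position. Nor does it bear on how far the calls depend on single libraries. Members and gene lists were chosen with earlier results of these data known. Genes were named if they are members, have a symbol and belong to the LIM network or limb signalling lists, were among the 5 nearest in pattern to a member, or lie at either end of the order of anterior factors. *Pbx3*, *Rgs5*, *Fn1*, *Postn*, *Col12a1*, *Krt19*, *Col17a1*, *Krt5*, *Ocln*, the identifier neighbours and the factors whose range overlaps *Lhx2* were named after their values were seen. No sequence of either gene is printed, and no test over a list was made.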

Additional observations from a re-analysis of the deposited data

How the results depend on the processing

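*Lhx2* had log2 fold changes of -2.33 to -2.04 when a library was left out. Under the other alternatives they were -2.19 to -2.06. The lower bound for *Lhx9* was 280-fold with DESeq2 size factors and 284-fold with library totals, and 233- to 334-fold with a library left out. The anterior ratio of *Lhx9* to *Lhx2* was 0.549 pooled and 0.448 to 0.638 with 1 library. The posterior share of *Lhx2* was 19.8% to 24.4% with a library left out. The 5 named genes nearest to *Lhx2* were shared at prior counts of 0.5 and 5, and of those nearest to *Lhx9* 4 were shared at 0.5 and 5 at 5. The number of genes called was not stable. From 53 it rose to 292 with DESeq2, 337 without the filter, 130 with a replicate block and 127 at a false-discovery rate of 0.05, and it ran from 2 to 62 with a library left out. It was 5, 2 and 3 without posterior replicates 1, 2 and 3, and *Hand2* and *Grem1* were called in each of these. Of the 24 spatial factors, with both members counted, 9 passed in the main fit. With DESeq2 22 passed, without the filter 20 and with the replicate block 11. Without posterior replicates 1, 2 and 3 this was 1, 1 and 2. The members were chosen by this difference, so that these counts show only how far the calls depend on the processing. *Lmo4* passed with DESeq2 (-1.17), without the filter (-1.17, adjusted p = 5.77e-10, edgeR) and with the replicate block (-1.01, adjusted p = 0.0058, edgeR), and with a library left out ran from -1.34 to -1. The block pairs 2 anterior with 2 posterior libraries, and the change from replicate 1 to 2 had an r of -0.0358 across 20875 genes between the positions. Whether equal numbers share animals is not stated, and this value does not settle it. With an anterior library left out, the lone one is assumed to vary like the others. The depth limits *Lhx9* in posterior cells to at most 0.353% of its anterior level, an upper limit from 3 counts in each library. Over all posterior libraries together, 3 counts are 0.207% of the 1449 raw anterior counts. That percentage is not scaled for depth or for the number of libraries, and so cannot be set against the 0.353%.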
